A study of Mus musculus with 4 samples.

Results

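The Hippo pathway and the genes that its effectors YAP and TAZ switch on were followed in cultured mouse liver cells by RNA sequencing. The set held 36 genes, chosen by symbol for their roles in the pathway out of 24493 rows in the table. All 36 were found and all 36 passed the filter on low values. Of these, 14 act upstream as kinases, scaffolds or adaptors, 8 are the effectors Yap1 and Wwtr1 with the Tead factors and the TEAD cofactors Vgll3 and Vgll4, and 14 are target genes. Hep_3D was 2 libraries of hepatocytes kept in 3D culture, and Bil_2D was 2 libraries of biliary cells derived from hepatocytes and kept in 2D culture. All 4 came from cells of C57BL/6 background with hepatocytes named as the source, from the 2 clones 15C7 and 19H5, and none had been treated. Each clone gave 1 library per state, so a clone is a single line and the difference in cell state came together with the difference in culture format: the 2 cannot be told apart. Nothing in the labels says whether the clones came from separate animals, and p-values cover only how far these libraries spread.

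In mammals the kinases STK3 and STK4, with the scaffold SAV1, activate LATS1 and LATS2 and their MOB1 partners. Active LATS kinases phosphorylate YAP and TAZ (the product of Wwtr1), which keeps them out of the nucleus. Unphosphorylated YAP and TAZ enter the nucleus and bind DNA through the TEAD factors. In the mouse liver the pathway restrains organ size, YAP activity in hepatocytes is known to bring on traits of bile duct cells, and loss of the upstream adaptor NF2 leads to overgrowth of bile ducts. RNA levels report neither phosphorylation nor where a protein sits in the cell.

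Values are TPM, a length-corrected share of each library, given with clone 15C7 before clone 19H5. Sequencing depth is unknown. The hepatocyte markers fixed for this work (7 genes, among them Alb, Ahsg and Arg1) summed to 55099 and 53831 TPM in Hep_3D against 1699.7 and 291 TPM in Bil_2D, so Bil_2D kept some. Of 6 biliary markers, Krt19, a keratin of bile duct cells, had 1.12 and 15.9 TPM in Hep_3D against 752 and 1615 TPM in Bil_2D. Epcam was low throughout, at 1.35 and 0.439 TPM in Hep_3D against 2.59 and 0.817 TPM in Bil_2D, and Spp1 was higher in Hep_3D, with 13093 and 9284 TPM in Hep_3D against 4176 and 6092 TPM in Bil_2D. The 50 most abundant genes took 46.6% and 48.4% of TPM in Hep_3D against 22.4% and 24.8% in Bil_2D, and over all 12336 genes tested the middle log2 fold change was -0.73 in TPM. Each difference is therefore also given after rescaling, that is, with each library's TPM divided by its median-of-ratios size factor, where that value was -0.02. Fold changes are Hep_3D minus Bil_2D in log2(TPM + 1), which shrinks the change of genes near zero. A gene is said to have fallen or risen where limma's adjusted p, by Benjamini-Hochberg over all genes tested, was under 0.05. In bulk samples, fewer cells with a transcript and less of it per cell cannot be told apart.

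In TPM most of the pathway was lower in Hep_3D, as were most genes tested. The targets had the lowest median fold change of the 3 roles. In TPM 27 of the 36 members fell and 0 rose, while 51.9% of all genes tested fell and 6.8% rose. After rescaling 15 fell and 1 rose, against backgrounds of 9.54% and 11.9%. Split by role, 13 of 14 targets fell in TPM and 10 after rescaling. Of the 14 upstream genes 9 and 3 fell, and of the 8 effector genes 5 and 2 fell. In TPM the upstream and effector shares (64.3% and 62.5%) were near the 51.9% of all genes. The median log2 fold change after rescaling was -1.48 for the targets, -0.25 for the upstream genes and -0.54 for the effector genes. Leaving out 1 library moved the counts. In TPM, leaving out Hep_3D replicate 1 gave 8 upstream genes, 6 effector genes and 11 targets that fell, and leaving out Hep_3D replicate 2 gave 6, 4 and 11. Without Bil_2D replicate 1 these were 4, 3 and 9, and without Bil_2D replicate 2 they were 4, 3 and 11. The share of all genes that fell in TPM was 32% and 28.7% without Hep_3D replicates 1 and 2 in turn, and 17.8% without either Bil_2D replicate, so the calls thinned out across the whole table. After rescaling, 3, 2, 2 and 1 of the targets fell in the same 4 leave-outs, 0 upstream or effector genes fell and 0 members rose, where 2.46%, 1.35%, 0.422% and 0.162% of all genes fell. Axl was the single member whose rescaled call held in all 4 leave-outs. With a minimum absolute log2 fold change of 1 (limma's treat, in TPM), 2 upstream genes, 0 effector genes and 6 targets fell, against 3.64% of all genes.

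**Figure D1:**
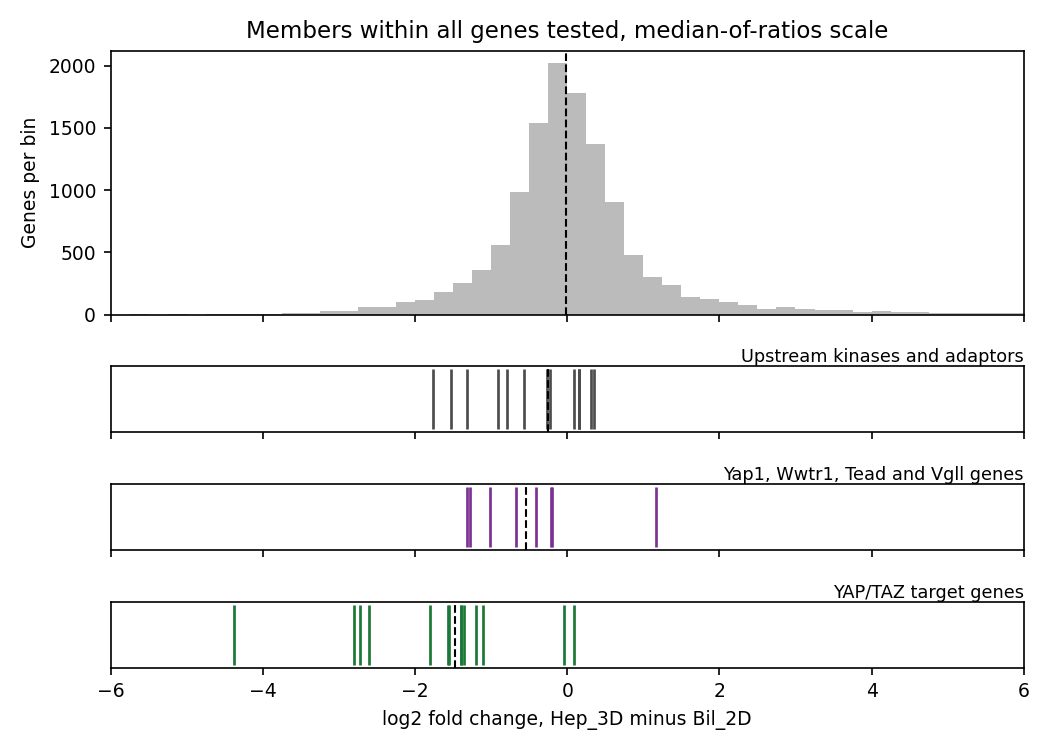
Log2 fold change (Hep_3D minus Bil_2D, TPM rescaled by size factors) of all 12336 genes tested as a histogram in bins, and of the members by role as vertical lines; dashed lines are medians, and the axis is clipped at both ends. The target genes lie mostly left of the bulk of genes, with a median of -1.48, while the upstream genes straddle it.

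Summed over the group, the 14 targets held 215 and 176 TPM in Hep_3D against 2086 and 1857 TPM in Bil_2D. The 14 upstream genes summed to 287 and 289.7 TPM in Hep_3D against 771 and 714 TPM in Bil_2D. The sums of the 2 states did not overlap for either group. Groups did not overlap, with Hep_3D lower, for 33 members in TPM and for 26 after rescaling, where the share among all genes was 71.9% and 34.7%. They did not overlap with Hep_3D higher for 1 member in TPM and 2 after rescaling, against 11.1% and 33.6% of all genes. Nt5e is the member that passed the filter on low values through Bil_2D alone.

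**Figure D2:**
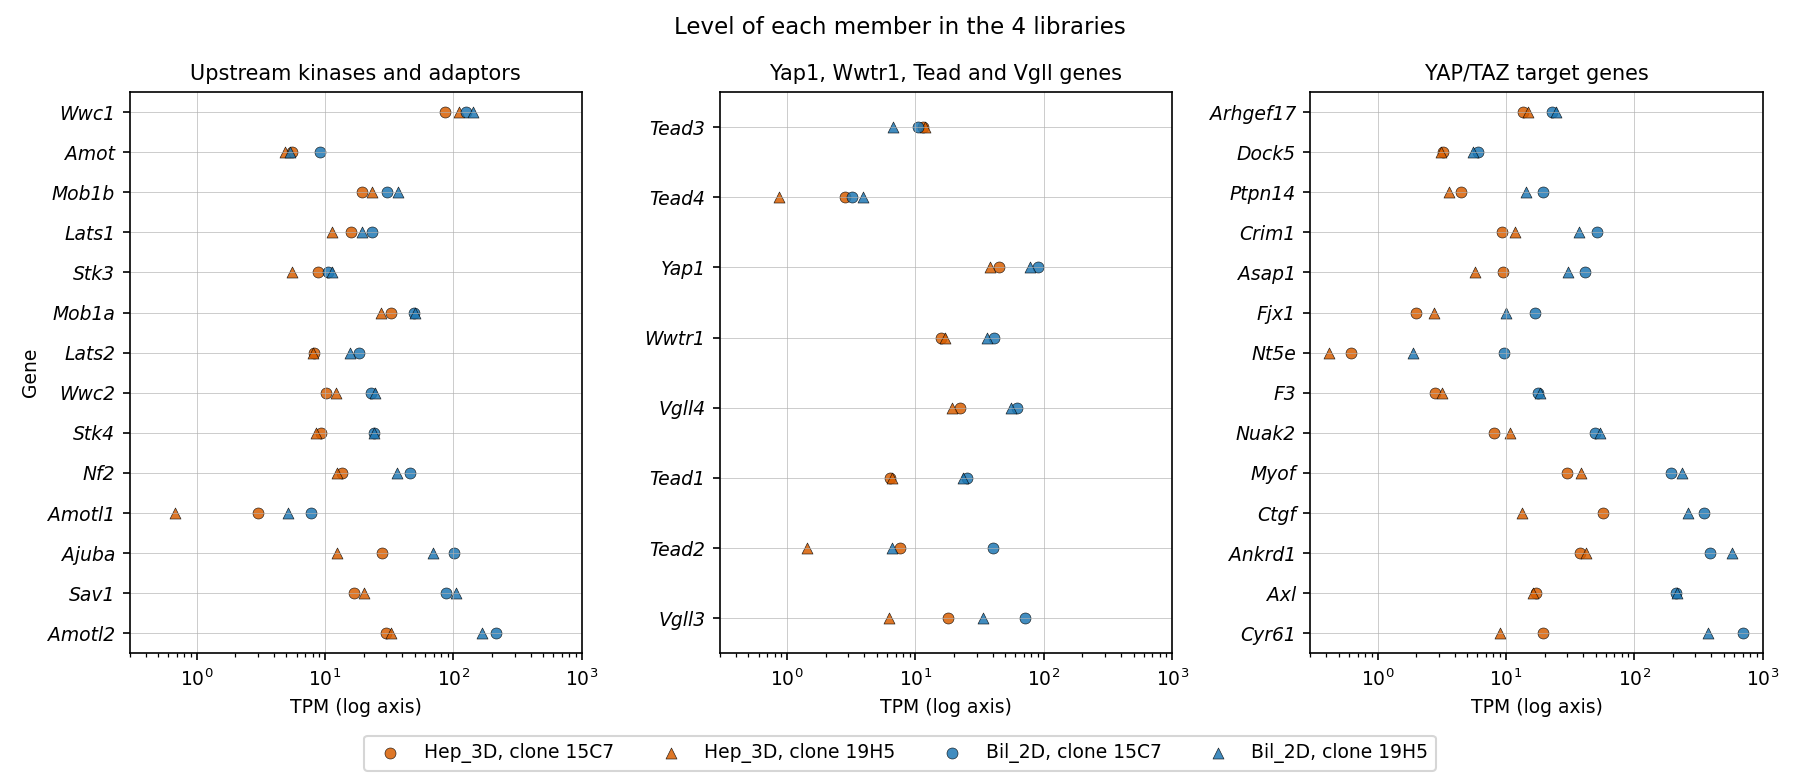
TPM (log axis) of each member in the 4 libraries, in panels by role, with Hep_3D in orange, Bil_2D in blue, clone 15C7 as circles and clone 19H5 as triangles. Within each target gene every Hep_3D point lies left of every Bil_2D point, with the widest gap for Cyr61. Tead3, among the effector genes, lies the other way round.

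The upstream genes ranged from some that fell well beyond the typical gene to others that moved with it. Amotl2, an angiomotin-like scaffold that binds YAP at junctions and is itself a known YAP target, had 30 and 32.7 TPM in Hep_3D against 216 and 168 TPM in Bil_2D (-2.57 ± 0.17 SE in log2, limma adjusted p = 0.0041; -1.77, adjusted p = 0.00879, after rescaling). Sav1, the scaffold that joins the STK3 and STK4 kinases to LATS, had 16.8 and 20 TPM in Hep_3D against 87.2 and 104 TPM in Bil_2D (-2.32 ± 0.17 SE in log2, limma adjusted p = 0.00446; -1.52, adjusted p = 0.0161, after rescaling). Both fell in TPM and after rescaling, and the 2 libraries of a state lay close together beside the gap between states. Nf2 (merlin), which brings LATS to the membrane, had 13.7 and 12.5 TPM in Hep_3D against 46 and 36.4 TPM in Bil_2D, and its log2 fold change of -1.58 (adjusted p = 0.00626 in limma) became -0.80, adjusted p = 0.037, after rescaling. These 3 are the upstream genes that fell in TPM and after rescaling, and each lost its rescaled call when any 1 library was left out (adjusted p from 0.052 to 0.175).

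Ajuba, a LIM protein that restrains LATS and so acts in favour of YAP, had 28 and 12.3 TPM in Hep_3D against 101 and 69.5 TPM in Bil_2D. It fell in TPM (log2 fold change -2.11, adjusted p = 0.0186 in limma). Leaving out Bil_2D replicate 1 gave an adjusted p of 0.0927, and leaving out Bil_2D replicate 2 gave 0.0629. After rescaling it stood at -1.32, adjusted p = 0.0957 and at an adjusted p of 0.0339 with clone as a block. Its level was higher in clone 15C7 than in clone 19H5 in both states.

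Among the core kinases Stk4 and Lats2 fell in TPM, while Stk3 and Lats1 missed the threshold. None of them passed after rescaling. Stk4 had 9.34 and 8.51 TPM in Hep_3D against 24.1 and 23.9 TPM in Bil_2D and fell in TPM by 1.34 (adjusted p = 0.00621 in limma; -0.57, adjusted p = 0.0594, after rescaling), a call that held in all 4 leave-outs. Its paralog Stk3 had 8.78 and 5.57 TPM in Hep_3D against 10.6 and 11.3 TPM in Bil_2D and missed the threshold (log2 fold change -0.58, adjusted p = 0.113). The difference between the paralogs was not tested. Lats2, which is also a known YAP target, had 8.19 and 8.0 TPM in Hep_3D against 18.2 and 15.8 TPM in Bil_2D and fell in TPM (log2 fold change -0.98, adjusted p = 0.0113 in limma), but its adjusted p was 0.0506 to 0.0713 as each library was left out and it stood at -0.23, adjusted p = 0.334, after rescaling. Lats1 had 16 and 11.3 TPM in Hep_3D against 23 and 19.4 TPM in Bil_2D and did not pass in TPM (adjusted p = 0.0762 in limma), passed with clone as a block (0.0313), and stood at 0.16 after rescaling.

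The MOB1 coactivators of LATS moved with the typical gene. Mob1a had 32.9 and 27.5 TPM in Hep_3D against 49.2 and 50.1 TPM in Bil_2D. Mob1b had 19.5 and 23.4 TPM in Hep_3D against 30.5 and 37.2 TPM in Bil_2D. Both fell in TPM, with log2 fold changes of -0.70 and -0.63 (limma adjusted p = 0.0197 and 0.041). After rescaling the sign turned, to 0.09 and 0.16, and neither passed (adjusted p = 0.674 and 0.609). Mob1a lost its call without Hep_3D replicate 2, Bil_2D replicate 1 or Bil_2D replicate 2 (adjusted p = 0.0723, 0.0907 and 0.0927), and Mob1b without any 1 of the 4 libraries (0.0809 to 0.169).

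Wwc1 (KIBRA), an activator of the kinase cascade, was the most abundant upstream gene in Hep_3D, with 85.6 and 110.4 TPM in Hep_3D against 125 and 143 TPM in Bil_2D. It did not pass in TPM or after rescaling (log2 fold change -0.46, adjusted p = 0.0896 in limma; 0.36, adjusted p = 0.273, after rescaling), and passed in TPM with clone as a block (0.0375). Its relative Wwc2 had 10.2 and 12.1 TPM in Hep_3D against 22.9 and 24.6 TPM in Bil_2D and fell in TPM (adjusted p = 0.0102 in limma), with 0.058 without Bil_2D replicate 1, 0.0649 without Bil_2D replicate 2 and -0.26 after rescaling. The other angiomotins were scarce: Amot had 5.49 and 4.86 TPM in Hep_3D against 9.20 and 5.37 TPM in Bil_2D, with overlapping groups. Amotl1 had 3.0 and 0.675 TPM in Hep_3D against 7.73 and 5.13 TPM in Bil_2D. Neither passed in TPM (adjusted p = 0.301 and 0.0592 in limma), and Amotl1 passed with clone as a block (0.0191).

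**Figure D3:**
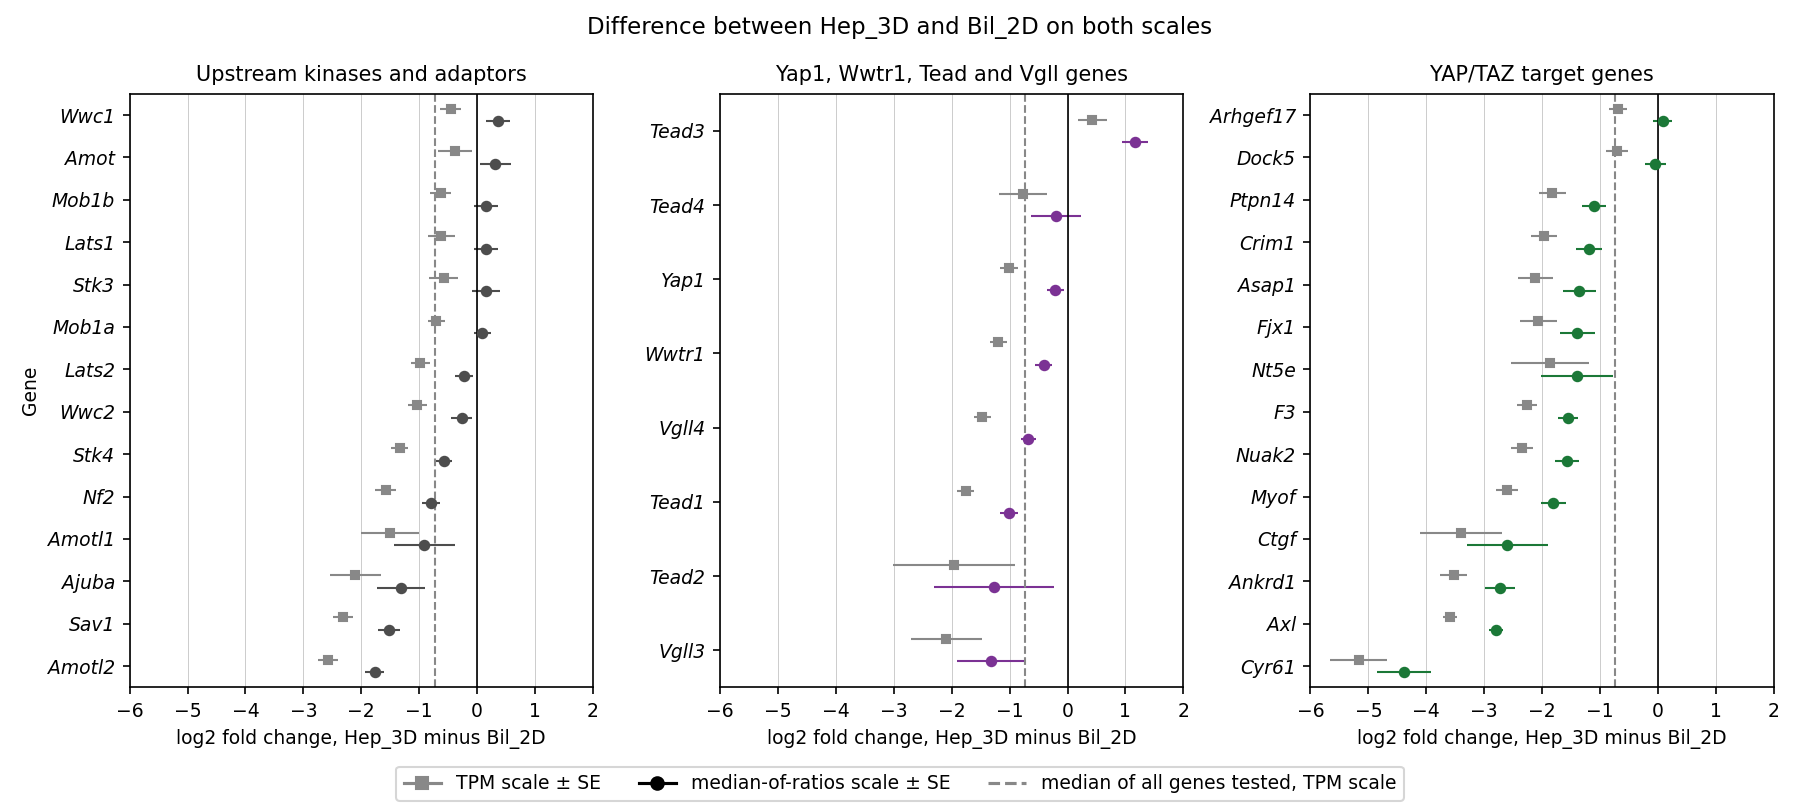
Log2 fold change (Hep_3D minus Bil_2D, ± SE from limma, n = 2 libraries each) of every member, with grey squares in TPM, coloured circles after rescaling and a dashed line at the median of all genes in TPM. Amotl2, Sav1, Ajuba and most targets lie well left of both lines, whereas the MOB1, LATS and WWC genes lie near the dashed line in TPM.

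Yap1 and Wwtr1 themselves fell in TPM only. Yap1 had 44.8 and 37.8 TPM in Hep_3D against 90.4 and 78.3 TPM in Bil_2D. Wwtr1 had 15.7 and 17.1 TPM in Hep_3D against 41.3 and 36.4 TPM in Bil_2D. The groups did not overlap for either gene. Their log2 fold changes of -1.01 (0.16 SE, limma adjusted p = 0.01) and -1.20 (0.15 SE, adjusted p = 0.00713) became -0.21, adjusted p = 0.337, and -0.41, adjusted p = 0.116, both after rescaling. The call of Yap1 was lost when Bil_2D replicate 1 (adjusted p = 0.0603) or Bil_2D replicate 2 (0.05005) was left out, and that of Wwtr1 held in all 4 leave-outs. Yap1 exceeded Wwtr1 in every library, by 2.86 and 2.22 times in Hep_3D against 2.19 and 2.15 times in Bil_2D.

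The Tead genes, which encode the DNA-binding partners, differed in their shares. Tead1 had 6.35 and 6.57 TPM in Hep_3D against 25 and 23.6 TPM in Bil_2D and fell in TPM and after rescaling (-1.76 ± 0.15 SE in log2, limma adjusted p = 0.00513; -1.01, adjusted p = 0.0207, after rescaling, where the adjusted p was 0.0762 to 0.149 as each library was left out). Tead3 had 11.5 and 11.8 TPM in Hep_3D against 10.5 and 6.73 TPM in Bil_2D. It was the member whose Hep_3D libraries both lay above both Bil_2D libraries: the difference missed the threshold in TPM (log2 fold change 0.43, adjusted p = 0.201 in limma) and passed after rescaling (1.17, SE 0.23, adjusted p = 0.0357), but not there with any 1 library left out (0.0949 to 0.16). Tead3 made up 40.7% and 57.2% of the summed Tead TPM in Hep_3D against 13.3% and 16.5% in Bil_2D.

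Tead2 stood apart by clone. It had 7.55 and 1.42 TPM in Hep_3D against 40.3 and 6.54 TPM in Bil_2D, so its level in clone 15C7 was 5.31 times that in clone 19H5 in Hep_3D and 6.16 times in Bil_2D, and the states overlapped. Without a clone term the difference did not pass (-1.95 ± 1.05 SE in log2, limma adjusted p = 0.173). With clone as a block the same difference passed in TPM and after rescaling (adjusted p = 0.0107 in TPM and 0.0318 after rescaling). The Tead sum was 28.2 and 20.7 TPM in Hep_3D against 78.9 and 40.8 TPM in Bil_2D, and Tead2 gave 26.8% and 6.87% of it in Hep_3D against 51% and 16% in Bil_2D. Tead4 was scarce, with 2.84 and 0.866 TPM in Hep_3D against 3.19 and 3.93 TPM in Bil_2D, and missed the threshold (limma adjusted p = 0.174).

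**Figure D4:**
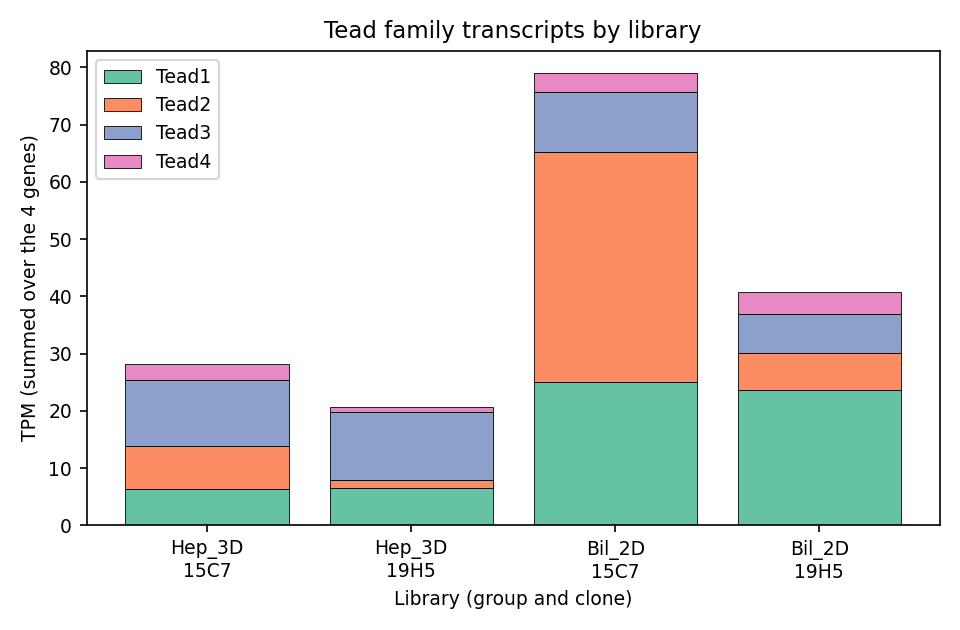
TPM of Tead1 to Tead4 stacked by library, with Hep_3D to the left of Bil_2D and 1 bar per library. The Tead1 band is wider in both Bil_2D bars, the Tead3 band takes 40.7% and 57.2% of the Hep_3D bars, and the Tead2 band is wide in the Bil_2D library of clone 15C7.

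The cofactors VGLL3 and VGLL4 bind TEAD in place of YAP, and VGLL4 is known to oppose YAP. Vgll4 had 22.1 and 19.3 TPM in Hep_3D against 62.2 and 55.8 TPM in Bil_2D and fell in TPM and after rescaling (-1.47 ± 0.15 SE in log2, limma adjusted p = 0.00577; -0.68, adjusted p = 0.0371, after rescaling, 0.0925 to 0.179 as each library was left out). Vgll3 had 17.9 and 6.22 TPM in Hep_3D against 71 and 33.3 TPM in Bil_2D, higher in clone 15C7 than in clone 19H5 in both states. It fell in TPM (adjusted p = 0.043 in limma), a call lost without Hep_3D replicate 2 (0.138), Bil_2D replicate 1 (0.168) or Bil_2D replicate 2 (0.0712). After rescaling it stood at -1.32, adjusted p = 0.184, and at 0.0244 with clone as a block.

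The targets held the widest differences of the set. Cyr61 (chromosome 3, 145646971 to 145649985 on GRCm38), which encodes the secreted matricellular protein CCN1, had 19.6 and 8.99 TPM in Hep_3D against 708 and 374 TPM in Bil_2D, a mean of 14.3 ± 7.53 TPM in Hep_3D against 541 ± 236 TPM in Bil_2D (SD, n = 2 each; -5.17 ± 0.49 SE in log2, limma adjusted p = 0.00555; -4.38, adjusted p = 0.0116, after rescaling). Among all genes tested, 0.0567% had a lower fold change in TPM. Ctgf (chromosome 10, 24595442 to 24598683), which encodes its relative CCN2 and promotes matrix formation, had 56.7 and 13.3 TPM in Hep_3D against 353 and 260.2 TPM in Bil_2D. Clone 15C7 kept more Ctgf than clone 19H5 in Hep_3D, by 4.26 times, against 1.36 times in Bil_2D. Its fall (-3.40 ± 0.71 SE in log2, limma adjusted p = 0.0187) lost its call when Bil_2D replicate 1 (0.0923) or Bil_2D replicate 2 (0.0734) was left out, and stood at -2.60, adjusted p = 0.0676, after rescaling, where it passed with clone as a block (0.0399).

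Ankrd1 (chromosome 19, 36111965 to 36119844), an ankyrin-repeat protein best known from muscle, had 38.1 and 42 TPM in Hep_3D against 386 and 577 TPM in Bil_2D (-3.53 ± 0.23 SE in log2, limma adjusted p = 0.00397; -2.72, adjusted p = 0.00938, after rescaling). Axl (chromosome 7, 25756500 to 25788924), a receptor tyrosine kinase for the ligand GAS6, had 17.1 and 16.3 TPM in Hep_3D against 211 and 214 TPM in Bil_2D (-3.59 ± 0.12 SE in log2, limma adjusted p = 0.00176; -2.80, adjusted p = 0.00213, after rescaling). The libraries within each state were close for Axl, and its standard error was the smallest among the members. Myof (myoferlin, a membrane-repair protein) had 30.1 and 38.6 TPM in Hep_3D against 193 and 235 TPM in Bil_2D and fell in TPM and after rescaling as well (-2.61 in TPM; -1.81, adjusted p = 0.0146, after rescaling). Together Cyr61, Ctgf, Ankrd1, Axl and Myof made up 75.1% and 67.9% of the target sum in Hep_3D against 88.7% and 89.4% in Bil_2D.

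TEAD factors bind the letters GGAATG, read CATTCC on the opposite strand, so the sequence before the members' start sites was searched for them. RefSeq's promoter table (GRCm38.p6) held 27 of the 36 members; Stk3, Tead1, Tead4, Ctgf, Nuak2, Dock5, Asap1, Arhgef17 and Fjx1 were not among them. In the 250 bases before a start site, 15 of these 27 genes held GGAATG on either strand (55.6%), against 1213 of 9569 tested genes matched by symbol (12.7%) and 3880 of all 27025 genes in the table (14.4%). By role these were 5 of 8 targets, 5 of 6 effector genes and 5 of 13 upstream genes. Of other motifs searched, TGANTCA (the AP-1 site, both strands) stood in 1 of the 27, F3, against 5.6% of tested genes, and the CArG box of SRF in 0, against 1.4%. Of the 32 windows, 18 overlapped the gene's annotated span, which can begin at an earlier start site, and 8 of these lay wholly inside it. A match is a description of letters, and binding was not measured. The targets were drawn from a published signature of YAP and TAZ, and Amotl2 and Lats2 are known YAP targets too. Amotl2 held the letters and Lats2 did not. The share was highest in the effector genes (83.3%, against 62.5% of the targets). How far the share follows from how the set was chosen was not tested.

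The windows below are those of the 3 targets with the lowest fold changes that the table holds and of Amotl2, the upstream gene with the lowest, each 5′ to 3′ on the gene's own strand and ending at the base before the start site, with GGAATG or CATTCC in capitals.
Cyr61 (chr3:145649986-145650235, minus strand): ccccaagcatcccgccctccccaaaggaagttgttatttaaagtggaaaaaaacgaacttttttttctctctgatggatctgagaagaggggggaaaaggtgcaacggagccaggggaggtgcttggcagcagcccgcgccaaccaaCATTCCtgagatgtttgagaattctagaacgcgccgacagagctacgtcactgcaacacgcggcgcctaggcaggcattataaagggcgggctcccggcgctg
Axl (chr7:25788734-25788983, minus strand): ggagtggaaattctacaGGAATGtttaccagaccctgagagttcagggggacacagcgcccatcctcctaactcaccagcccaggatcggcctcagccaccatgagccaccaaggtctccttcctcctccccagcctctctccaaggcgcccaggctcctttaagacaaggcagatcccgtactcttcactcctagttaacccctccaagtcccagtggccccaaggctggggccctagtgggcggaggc
Ankrd1 (chr19:36119845-36120094, minus strand): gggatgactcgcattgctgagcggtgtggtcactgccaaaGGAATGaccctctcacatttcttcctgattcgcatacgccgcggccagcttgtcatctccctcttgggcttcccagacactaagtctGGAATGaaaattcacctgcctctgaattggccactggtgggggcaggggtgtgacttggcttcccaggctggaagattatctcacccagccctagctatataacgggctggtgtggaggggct
Amotl2 (chr9:102717554-102717803, plus strand): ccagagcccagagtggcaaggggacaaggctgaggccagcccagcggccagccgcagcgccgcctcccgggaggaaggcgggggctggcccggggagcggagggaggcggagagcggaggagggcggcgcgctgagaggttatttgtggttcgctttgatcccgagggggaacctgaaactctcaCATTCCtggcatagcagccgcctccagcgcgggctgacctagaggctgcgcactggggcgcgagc
Cyr61 has 1 match, read CATTCC and ending 98 bases before the start site. Axl has 1, read GGAATG and ending 228 bases before the start site in the table; the annotated gene reaches further upstream, so 191 bases of this window lie inside it. Ankrd1 has 2, read GGAATG and ending 205 and 118 bases before the start site. Amotl2 has 1, read CATTCC and ending 60 bases before the start site in the table, but its window lies wholly inside the annotated gene, which begins further upstream. Holding the letters did not go only with low fold changes: Tead3, higher in Hep_3D after rescaling, has them before 2 of its 3 annotated start sites, and Myof, F3 and Nt5e have none in this window. The median log2 fold change after rescaling was -1.19 over the 15 members with the letters and -0.68 over the 12 without. These sets differ in role, since 5 of 13 upstream genes held the letters against 5 of 8 targets. The role medians were -0.25 and -1.48, so the comparison cannot separate the letters from role, and it was not tested.

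The other targets followed at lower levels. Nuak2, a kinase of the AMPK family, had 8.09 and 10.9 TPM in Hep_3D against 49.7 and 53.8 TPM in Bil_2D. F3, tissue factor of the coagulation cascade, had 2.83 and 3.18 TPM in Hep_3D against 17.9 and 18.4 TPM in Bil_2D. The groups of both genes lay far apart. Crim1, a transmembrane protein that binds BMPs, had 9.27 and 11.7 TPM in Hep_3D against 51.2 and 37.3 TPM in Bil_2D. Ptpn14, a phosphatase that restrains YAP, had 4.47 and 3.60 TPM in Hep_3D against 19.6 and 14.3 TPM in Bil_2D. All 4 fell in TPM and after rescaling, with log2 fold changes of -2.34, -2.26, -1.97 and -1.82 in TPM (adjusted p = 0.00507, 0.00454, 0.00651 and 0.00733 in limma) and -1.57, -1.56, -1.19 and -1.10 after rescaling. Asap1, a GTPase-activating protein for ARF, had 9.52 and 5.72 TPM in Hep_3D against 41.1 and 30.5 TPM in Bil_2D and fell in TPM and after rescaling (-2.11 and -1.35), with an adjusted p of 0.0526 in TPM without Bil_2D replicate 1. Fjx1, the four-jointed homolog, had 2.01 and 2.77 TPM in Hep_3D against 16.9 and 10.1 TPM in Bil_2D and fell in TPM and after rescaling (-2.06 and -1.39, adjusted p = 0.00938 and 0.0434 in limma), but with clone as a block its rescaled adjusted p was 0.0595.

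Nt5e, the ectoenzyme CD73 that makes adenosine, had 0.621 and 0.417 TPM in Hep_3D against 9.58 and 1.89 TPM in Bil_2D, so most of its RNA lay in the Bil_2D library of clone 15C7. It missed the threshold (log2 fold change -1.87, adjusted p = 0.072 in limma) and passed with clone as a block (0.044). Its log2 fold change ran from -2.80 (Bil_2D replicate 2 left out) to -0.93 (Bil_2D replicate 1 left out). Both Hep_3D libraries were under 1 TPM, so Nt5e entered the test through Bil_2D alone. Its call with clone as a block is therefore a description. Dock5 and Arhgef17 moved with the typical gene. Dock5 had 3.26 and 3.15 TPM in Hep_3D against 6.12 and 5.59 TPM in Bil_2D. Arhgef17 had 13.6 and 15 TPM in Hep_3D against 22.7 and 24.7 TPM in Bil_2D. They fell in TPM (adjusted p = 0.0321 and 0.0203 in limma), lost the call as any 1 library was left out (0.0926 to 0.141 and 0.0651 to 0.106), and stood at -0.04 and 0.08 after rescaling.

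Within each clone most members were lower in Hep_3D. In TPM 35 of 36 were lower in both clones, where 77.5% of all genes were. After rescaling 27 of 36 members were lower in Hep_3D in both clones and 6 were higher in both, where 41.9% and 40.4% of all genes were. Cyr61 differed by -4.29 in clone 15C7 and -4.46 in clone 19H5, and Axl by -2.74 and -2.85. Ctgf differed by -1.79 in clone 15C7 and -3.41 in clone 19H5, while Nt5e differed by -2.15 and -0.65 and Fjx1 by -1.89 and -0.89. With 1 library per clone and state the difference between clones could not be tested.

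**Figure D5:**
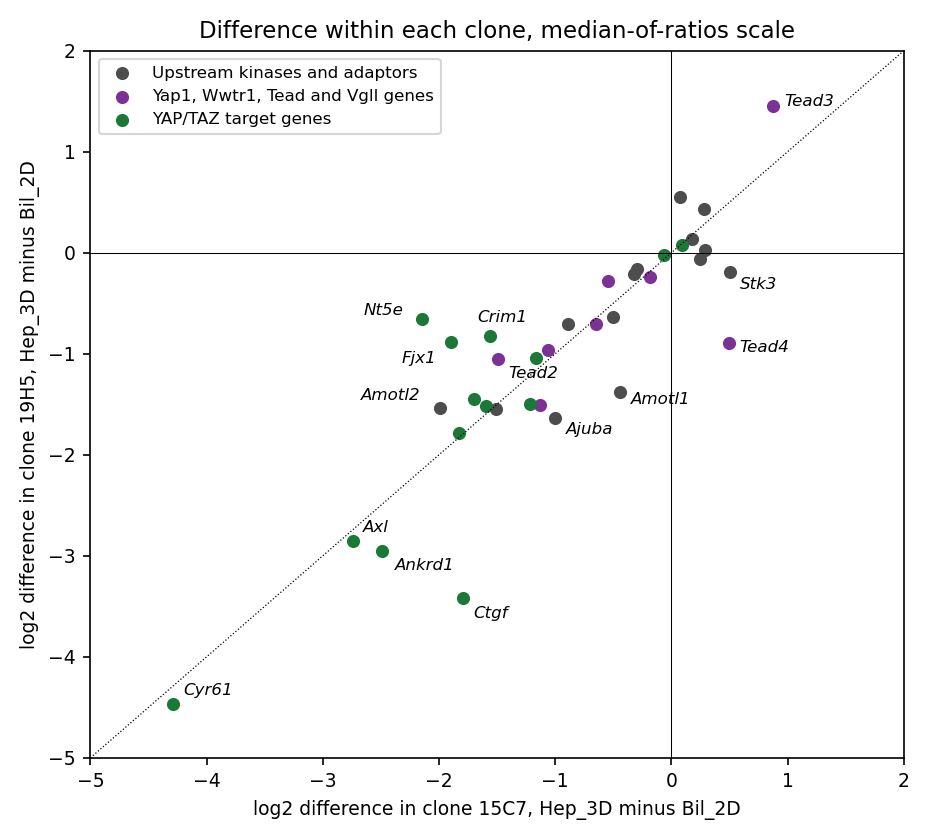
Log2 difference Hep_3D minus Bil_2D (rescaled TPM) of each member in clone 15C7 (x) and clone 19H5 (y), 1 library per clone and state, coloured by role, with the dotted line marking equal values. Cyr61 and Axl lie near the line, Ctgf lies below it (-1.79 against -3.41) and Nt5e above it.

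Other Hippo regulators, from a list chosen for their role, lay near the typical gene after rescaling. The counts below compare with 51.9% of all genes tested that fell in TPM. After rescaling 9.54% of all genes fell and 11.9% rose. Of 38 tested, 27 fell in TPM (19 and 16 without Hep_3D replicates 1 and 2 in turn, 10 and 8 without Bil_2D replicates 1 and 2), and 5 fell and 1 rose after rescaling, with a median log2 fold change of -0.11 there. Frmd6, the FERM protein that acts upstream of the kinases, had 5.03 and 3.22 TPM in Hep_3D against 25.3 and 24.8 TPM in Bil_2D. Dlg5, a polarity scaffold, had 6.71 and 7.12 TPM in Hep_3D against 35.5 and 27.1 TPM in Bil_2D. Map4k4, a kinase that can phosphorylate LATS, had 26.6 and 19.1 TPM in Hep_3D against 109 and 84.1 TPM in Bil_2D. These 3 fell in TPM and after rescaling (-1.64, -1.26 and -1.24 after rescaling, adjusted p = 0.0185, 0.0196 and 0.0276 in limma). With 1 library left out, 0 of the 38 fell after rescaling, except without Hep_3D replicate 1, where 1 did.

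Further YAP and TAZ targets were described in the same way. The published signature from which the targets were drawn is completed by 6 genes. Foxf2 and Rbms3 were too low to be tested. Of the 4 tested, 3 fell in TPM. Igfbp3 did not, with log2 fold changes of 0.62 in TPM and 1.42 after rescaling (adjusted p = 0.423 and 0.166 in limma). Tgfb2, a TGF-beta ligand, had 1.14 and 0.719 TPM in Hep_3D against 33.1 and 15.9 TPM in Bil_2D. Ccdc80, a matrix protein, had 0.987 and 0.961 TPM in Hep_3D against 10.3 and 11.9 TPM in Bil_2D. Gadd45a, a stress-response gene, had 17.9 and 24 TPM in Hep_3D against 95.1 and 64.4 TPM in Bil_2D. After rescaling Tgfb2 and Ccdc80 fell (-3.05 and -2.03) while Gadd45a missed the threshold (limma adjusted p = 0.0537), and none of them passed there with 1 library left out. Ccdc80 entered the test through Bil_2D alone, since both Hep_3D libraries were under 1 TPM, so its call and the count it is part of are a description. Of 18 other reported targets tested, 10 fell and 0 rose in TPM (10 and 8 without Hep_3D replicates 1 and 2 in turn, 7 and 5 without Bil_2D replicates 1 and 2), and 6 fell and 1 rose after rescaling (3 and 2, then 1 and 1, fell in the same leave-outs). Over all genes tested, 51.9% fell and 6.8% rose in TPM, and 9.54% fell and 11.9% rose after rescaling. The 10 of 18 that fell in TPM were thus near the share of all genes that fell. The TPM count includes Areg, which likewise passed the filter on low values through Bil_2D alone. Ccnd1 (cyclin D1) had 32.8 and 30.6 TPM in Hep_3D against 645 and 813 TPM in Bil_2D, a log2 fold change of -4.47 (adjusted p = 0.00205 in limma; -3.67, adjusted p = 0.00262, after rescaling), and it kept both calls in all 4 leave-outs. Thbs1, thrombospondin, had 2.80 and 0.660 TPM in Hep_3D against 46.4 and 20.1 TPM in Bil_2D. Birc5, survivin, had 12.7 and 3.91 TPM in Hep_3D against 93.5 and 125 TPM in Bil_2D. Without Bil_2D replicate 1 the TPM adjusted p of Thbs1 was 0.0538, and without Bil_2D replicate 2 that of Birc5 was 0.0552.

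Cell cycle and most actin genes moved with the targets. Their median log2 fold changes after rescaling were -2.52 and -1.69, both lower than the -1.48 of the targets. For comparison, 51.9% of all genes tested fell in TPM and 9.54% after rescaling. All 12 cell cycle genes tested fell in TPM and 10 after rescaling, and their sum was 156 and 83.3 TPM in Hep_3D against 814 and 922 TPM in Bil_2D. Without Hep_3D replicates 1 and 2 in turn, 12 and 12 of them fell in TPM and 11 and 4 after rescaling. Without Bil_2D replicates 1 and 2 in turn, 4 and 2 fell in TPM and 0 and 0 after rescaling, where 17.8% of all genes fell in TPM in each, and 0.422% and 0.162% after rescaling. The genes of the list with the lowest rescaled fold changes were Ccnb1, Ccna2 and Birc5 (-3.24, -3.04 and -2.97), and the first 2 encode cyclins. Of 13 tested targets of SRF, a factor that responds to the state of actin, 10 fell in TPM (6 without Hep_3D replicate 2) and 7 after rescaling (3 and 2 without Hep_3D replicates 1 and 2 in turn, 0 and 1 without Bil_2D replicates 1 and 2). The TPM count includes Tpm2, which passed the filter on low values through Bil_2D alone. Srf, Tagln and Egr1 of this list did not move with the targets after rescaling (-0.11, 0.01 and 0.32). Cnn2 (calponin) had 15.6 and 7.11 TPM in Hep_3D against 137 and 106 TPM in Bil_2D. Fhl2 (a LIM protein) had 3.28 and 1.92 TPM in Hep_3D against 23 and 26.2 TPM in Bil_2D. Tpm1 (tropomyosin) had 119 and 109 TPM in Hep_3D against 1243 and 514 TPM in Bil_2D, and its TPM call was lost when Hep_3D replicate 1 (0.0544) or Hep_3D replicate 2 (0.0611) was left out. Birc5 is counted both here and among the other reported targets, and Tagln both there and among the SRF targets. The part of proliferation and actin state in the YAP target differences was not tested.

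Markers of most other cell types that a liver culture could hold were near zero. Of 10 fibroblast and stellate markers, 8 were under 1 TPM in all 4 libraries, among them Col1a2, Col3a1, Pdgfra and Pdgfrb. Col1a1 reached 1.17 TPM in Hep_3D replicate 1. Dcn (decorin) had 178 and 2.79 TPM in Hep_3D against 2.38 and 0 TPM in Bil_2D, where Bil_2D replicate 2 is listed at 0, and the list summed to 179.7 and 3.54 TPM in Hep_3D against 4.36 and 1.28 TPM in Bil_2D. All 6 endothelial markers were under 1 TPM in every library, and the sum of 6 macrophage and leukocyte markers was 2.42 and 2.76 TPM in Hep_3D against 5.99 and 13.3 TPM in Bil_2D, mostly from Cd68 and Csf1r, with Cd3e listed at 0 in every library. Of 4 mesothelial markers, Msln had 2.76 and 9.92 TPM in Hep_3D against 324 and 828 TPM in Bil_2D, and the others, Wt1, Upk3b and Lrrn4, were under 1 TPM in every library, with Upk3b listed at 0. The part of cells with Msln, or of Dcn-expressing cells in Hep_3D replicate 1, in the target differences was not tested.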

How the data were processed

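The authors deposited TPM per gene symbol for 4 libraries (24493 rows, each library summing to 1000000), built by Novogene from RNA extracted with a Qiagen kit, per the labels' protocols. Salmon, DESeq2 and the mm10 build are listed, per the submitters' processing notes, without versions or roles, and the annotation is not given in the sources used here. TPM keeps no depth, so counting error is unknown and no count model was run. Groups, clones and replicate numbers came from the sample titles. The 12336 genes reaching 1 TPM in 2 or more libraries entered limma 3.58.1 (R 4.3.3) as log2(TPM + 1) (eBayes with a trend, 2 residual degrees of freedom, prior 2.29), Hep_3D minus Bil_2D, and adjusted by Benjamini-Hochberg. With 2 libraries in each state, 0.333 is the smallest p an exact permutation test allows. Rescaled values are each library's TPM over its median-of-ratios size factor, taken from the 10434 genes reaching 1 TPM throughout, which set the groups apart by -0.82 (log2, Hep_3D minus Bil_2D). Same-numbered libraries share a clone, per the labels, and their deviations from the group means correlated at 0.414 across genes. All 36 members were named, and from each further list up to 3 called genes with the largest fold changes after rescaling. Members, lists and tests were chosen with earlier results of these data known. Alternatives were other pseudocounts, filters, scalings and variance settings, clone as a block, and each library left out; those after rescaling with a library left out, and a minimum fold change, were added after seeing the data. The fit was tested on simulated data. Older symbols Cyr61 and Ctgf were matched to RefSeq's Ccn1 and Ccn2.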

Additional observations from a re-analysis of the deposited data

Results flagged for a closer look

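In 3 members the 2 clones moved in opposite directions after rescaling, which the design cannot test with 1 library per clone and state. Tead4 differed (Hep_3D minus Bil_2D) by 0.49 in clone 15C7 and -0.90 in clone 19H5, a gap of 1.39 between the clones. Stk3 differed by 0.50 in clone 15C7 and -0.19 in clone 19H5, a gap of 0.70. Mob1a differed by 0.24 in clone 15C7 and -0.06 in clone 19H5, a gap of 0.30. In TPM all 3 were lower in Hep_3D in both clones. Groups of 2 libraries are too small for a check of single outlying samples.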

How the results depend on the processing

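The counts of called members kept within 1.5 times of those reported with log2(TPM + 0.1), log2(TPM + 5), no filter, a filter of 5 TPM and eBayes without a trend. With the replicate block 12 upstream genes, 6 effector genes and 14 targets fell in TPM, against 58.1% of all genes, and pairing by clone lost 0 of the 27 calls there. The 14 targets include Nt5e, which passed the filter on low values through Bil_2D alone. Other scalings gave upstream counts, in place of 9, of 3 (median-of-ratios), 4 (quantile), 4 (the 50 most abundant genes left out) and 4 (median-of-ratios with the replicate block), and effector counts, in place of 5, of 2, 2, 3 and 4, where 9.54%, 14.1%, 18.2% and 11.7% of all genes fell. Under median-of-ratios, quantile and the blocked median-of-ratios fit 1 member rose, Tead3. A minimum absolute log2 fold change of 1 left 2 upstream genes (Sav1 and Amotl2), 0 effector genes and 6 targets (Cyr61, Ankrd1, Axl, Myof, Nuak2 and F3). With 1 library left out, 4 to 8 upstream genes, 3 to 6 effector genes and 9 to 11 targets fell in TPM, where 17.8% to 32% of all genes did. After median-of-ratios rescaling these were 0, 0 and 1 to 3 (0.162% to 2.46% of all genes), with 0 members higher, and the block gave 4 effector genes in place of 2. Fold changes that turned positive were those of Wwc1 (0.36 median-of-ratios, 0.18 quantile, 0.093 without the most abundant genes), Amot (0.31, 0.21 and 0.092), Stk3 (0.15 and 0.070 in the first 2), Lats1 (0.16 and 0.067), Mob1b (0.16 and 0.062), Mob1a (0.093 median-of-ratios) and Arhgef17 (0.083 median-of-ratios), and the block leaves the median-of-ratios values as they are. In TPM these genes stood between -0.39 (Amot) and -0.70 (Mob1a), smaller in size than the -0.82 by which the size factors set the groups apart. The cause of their differences between the states was not tested. The depth behind low members such as Nt5e, Tead4 and Amotl1 is unknown.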

Other observations

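Some reported targets outside the set did not follow the others, and these were picked after their values were seen. Igfbp3, a binding protein for insulin-like growth factors, had 141 and 41.1 TPM in Hep_3D against 47.7 and 51.5 TPM in Bil_2D. Its groups overlapped in TPM. After rescaling Hep_3D was higher without overlap but missed the threshold (1.42, adjusted p = 0.166 in limma). Itgb5, an integrin subunit, had 40.8 and 26.8 TPM in Hep_3D against 25.1 and 8.63 TPM in Bil_2D, with Hep_3D above Bil_2D in both libraries, and missed the threshold (limma adjusted p = 0.146; 1.88, adjusted p = 0.0696, after rescaling). Birc3, an inhibitor of apoptosis, had 24.4 and 20.5 TPM in Hep_3D against 24.3 and 18 TPM in Bil_2D and rose after rescaling only (0.87, adjusted p = 0.0423, in limma). Among the Hippo regulators Map4k3 had 26 and 25.7 TPM in Hep_3D against 28.8 and 27.1 TPM in Bil_2D and likewise rose there only (0.68, adjusted p = 0.0334). Notch2, a receptor placed downstream of YAP in mouse liver studies, had 10.6 and 7.92 TPM in Hep_3D against 15.9 and 13 TPM in Bil_2D. Sox9, a biliary transcription factor placed there as well, had 29.2 and 15.3 TPM in Hep_3D against 47.6 and 43.4 TPM in Bil_2D. Neither passed in TPM or after rescaling (adjusted p = 0.0762 and 0.0503 in TPM in limma).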
